A study of Mus musculus with 6 samples.

Results

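The ephrin, semaphorin, netrin and Slit guidance genes were examined in whole wildtype mouse embryos and in embryos homozygous for the *iso* allele of *Zic2*. Members were taken by their names on the array: the Eph receptors and ephrins, the semaphorins with their plexin and neuropilin receptors, the netrins with Dcc and Unc5a to Unc5d, and the Slits with their Robo receptors. This gave 168 of 45281 probes, for 65 of 19057 named genes. RefSeq lists 69 genes of these families, and *Ephb2*, *Ntn1*, *Robo3* and *Sema5b* were not analysed here. One further probe, which carries 2 symbols for neuropilin-2, was left out.

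Eph receptors, plexins with neuropilins, Unc5 and Dcc, and Robo proteins are receptors on the cell surface that steer moving cells and growing axons. Ephrins act between touching cells, since ephrin-A ligands are held in the membrane by a lipid anchor and ephrin-B ligands cross it. Netrins, Slits and class 3 semaphorins are secreted, while the other semaphorins measured are mostly bound to the membrane. In the early embryo the same proteins keep neighbouring cell groups apart, guide neural crest cells and shape blood vessels, well before axons grow.

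Illumina Mouse WG6 v2 arrays were hybridised with RNA of 3 wildtype and 3 *Zic2 iso/iso* samples, 1 array a sample. For every sample 8 embryos matched for stage, between E8.0 and E8.5, were pooled from crosses of heterozygous parents on the C3H/HeH strain. The *iso* allele arose by chemical mutagenesis of C57BL/6J males and carries a stop codon in the last zinc finger, so that every cell of a mutant embryo carries it and a segment of the donor strain may travel with it. Wildtype embryos were littermates of the mutants, male and female embryos both entered the experiments, and which litters made up a pool is not given. The *Zic2* probe was at 7.74 ± 0.24 (SD, n = 3) in mutant and 8.11 ± 0.14 (SD, n = 3) in wildtype pools, a log2 difference of −0.37 (adjusted p = 0.61 from limma). The allele changes the protein sequence and is not a deletion, so that the level of this probe does not check the genotype. All values below are log2 probe intensities after quantile normalisation, which sets the arrays to 1 distribution, and in each difference the wildtype mean is subtracted from the *Zic2 iso/iso* mean. Each gene is represented by its brightest probe. Levels of different genes are not comparable, because probes differ in how strongly they hybridise.

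No guidance gene changed past the threshold. None of the 65 genes, and none of the 168 probes, reached an adjusted p of 0.05 in limma, where 0.0442% of all probes did. A background level of 7.47 was set from probes for olfactory receptors and similar genes. By the mean of a genotype, 47 of the 65 genes were above it in at least 1 genotype (42 in both, 5 in only 1). Selection on either genotype favours genes that differ, and counts over the 47 are therefore descriptions. Of the 47, 23 had a positive and 24 a negative difference, with a median of −0.0011 beside −0.0072 over 10845 named genes above background. An unadjusted p under 0.05 was found for 12 of the 47 (25.5%), 8 higher and 4 lower in the mutant, where the background share was 11.2%. The 3 mutant pools lay above the 3 wildtype pools in 7 genes (14.9%, where 5.03% of all named genes above background did so) and below them in 2 (4.26%, background 7.41%). The split between higher and lower depended on the scaling and the pools. Without normalisation 6 members were higher and 0 lower (4.36% and 0.623% of all named genes). With arrays centred on their medians 7 were higher and 2 lower (6.37% and 3.66%). Leaving out wildtype pool 1 gave 12 and 4 (11.2% and 15.2%), pool 2 gave 7 and 7 (8.53% and 11.9%). Leaving out wildtype pool 3 gave 8 and 8 (9.26% and 11.8%). Leaving out mutant pool 1 gave 9 and 4 (11.2% and 12.3%), pool 2 gave 10 and 6 (9.47% and 13.5%). Leaving out mutant pool 3 gave 7 and 5 (9.84% and 13.2%). The lack of overlap by itself fixes the two-sided exact permutation p of each of the 9 genes at 0.1. With 3 pools against 3 it cannot go lower.

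The sizes were small throughout. The differences of the 47 genes ran from −0.26 (*Ephb1*) to 0.37 (*Unc5c*), and 26 of them were within 0.1 of 0. The 95% interval of each difference stayed within 0.5 of 0 for 44 genes, and for the other 3, *Unc5c*, *Unc5b* and *Epha1*, it reached 0.54, 0.57 and 0.51. None of the 47 intervals held a 2-fold difference in intensity, or 1 on the log2 scale. The intervals are for 1 gene at a time and refer to intensities from which the background was not subtracted, so that differences in transcript can be larger, above all near the background level. Of the named genes as a whole, the central 90% had differences between −0.19 and 0.17, and 10 of the 47 members were above that range and 3 below it.

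**Figure D1:**
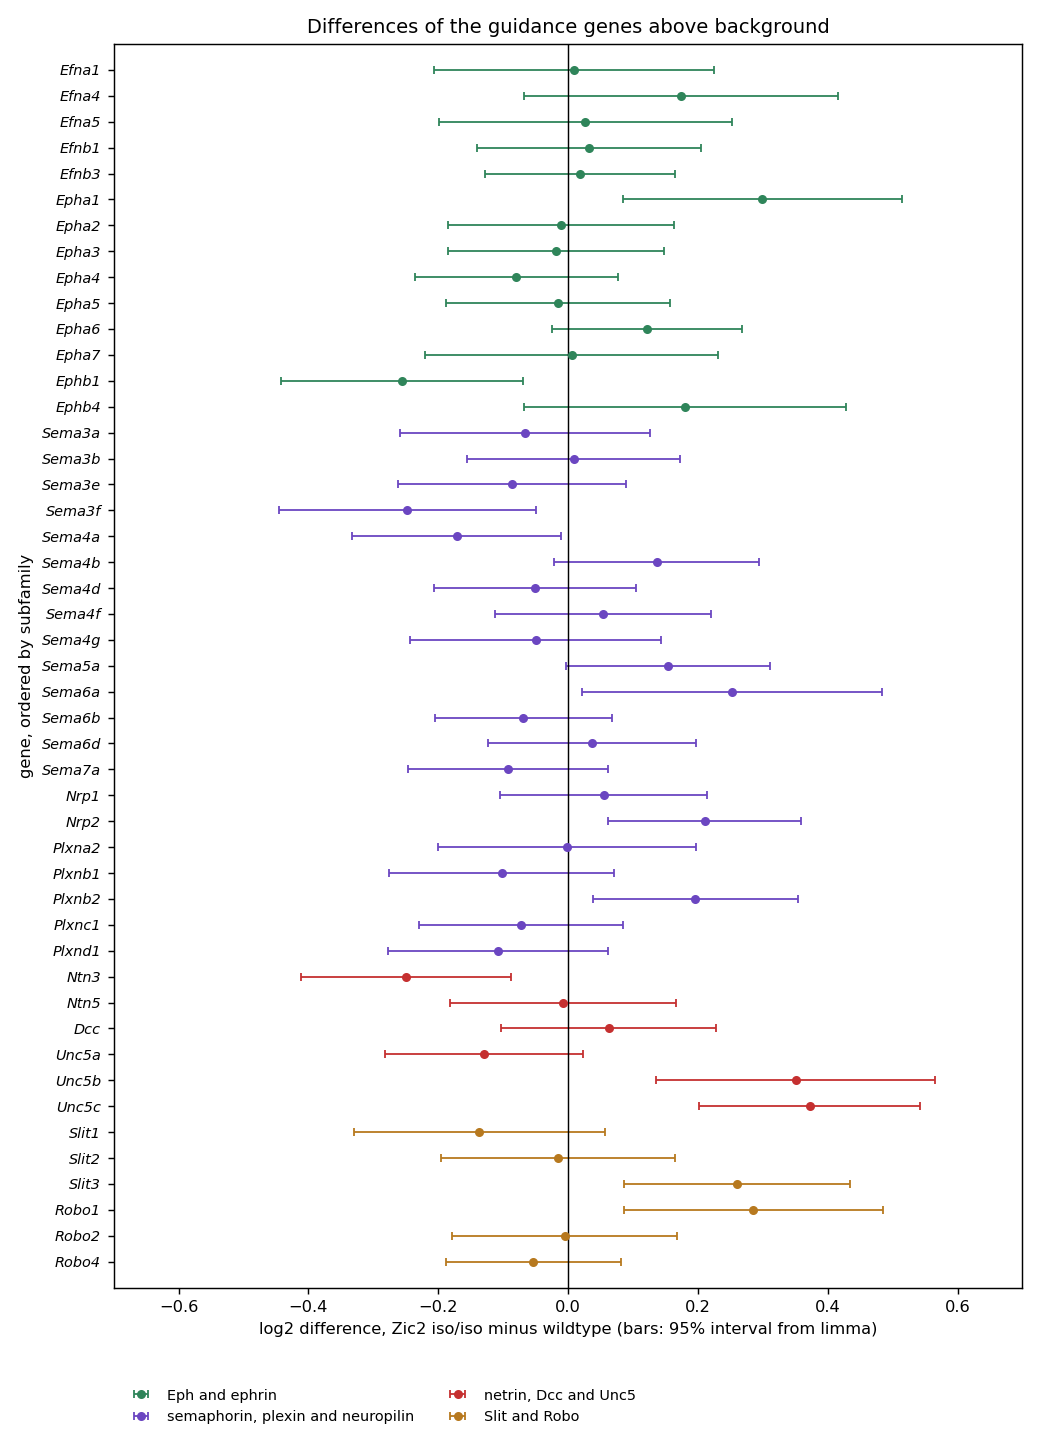
Log2 difference in intensity, Zic2 iso/iso minus wildtype (horizontal axis), for the 47 guidance genes above background, ordered by subfamily (vertical axis) and coloured by system. Points are estimates and bars 95% intervals from limma with 3 pools per genotype. The largest positive values are those of Unc5c (0.37) and Unc5b (0.35), and no interval reaches 1 in either direction.

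The largest differences were in the receptors for netrin. *Unc5c*, which encodes a receptor that turns cells away from netrin, was at 9.15, 9.44 and 9.34 in the mutant pools, in order of their number, and at 8.97, 8.93 and 8.91 in the wildtype pools. The lowest mutant pool was above the highest wildtype pool, with 0.18 between the nearest, and the wildtype pools lay close together. The log2 difference was 0.37 (standard error 0.078), a 1.29-fold higher intensity, with an adjusted p of 0.24. In the deposited intensities, before normalisation, the probe read 709, 693 and 569 in the mutant pools and 471, 499 and 452 in the wildtype pools, again without overlap. A second probe of *Unc5c* showed the same order of pools, with a difference of 0.26 (standard error 0.086), and a further probe, near the background level, was at 0.041.

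*Unc5b*, a receptor of the same family that is best known from the tips of growing blood vessels, was at 10.71, 11.002 and 10.62 in the mutant and 10.53, 10.48 and 10.27 in the wildtype pools. These groups did not overlap either, and the difference of 0.35 (standard error 0.099, adjusted p = 0.57) was 1.28-fold. It has 1 probe on the array. Of the remaining Unc5 receptors, *Unc5a* had a mean above background only in wildtype (7.35 and 7.48 in mutant and wildtype, difference −0.13). *Unc5d* was below background in both genotypes. For *Dcc*, the receptor that draws axons towards netrin, the mean was above background only in the mutant (7.51 against 7.45, difference 0.063). Single *Dcc* pools of each genotype lay on both sides of the background level.

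Of the ligands, *Ntn3* was lower in the mutant. It encodes netrin-3, a secreted laminin-like protein, and read 8.93, 8.93 and 9.08 in mutant and 9.21, 9.14 and 9.34 in wildtype pools. The groups did not overlap, with a log2 difference of −0.25 (standard error 0.074, adjusted p = 0.61), and its second, dimmer probe was at −0.097. *Ntn5*, a netrin-like gene, was at −0.0081, and *Ntn4* was below background. Within the netrin system the 6 genes above background thus held 2 genes higher and 1 lower without overlap, where the shares over all named genes above background were 5.03% and 7.41%, and a median of 0.027.

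The stretches before the start sites of these 3 netrin-system genes are shown because their pools were apart in opposite directions. They hold the 250 bases upstream of the RefSeq start site, 5′ to 3′ on the strand of the gene, in build GRCm38.p6: *Unc5c* on the plus strand at chr3:141465314-141465563, *Unc5b* on the minus strand at chr10:60831582-60831831 and *Ntn3* on the minus strand at chr17:24209388-24209637. Capitals mark the letters CCTGCTG or CCCGCTG on either strand, which are associated with ZIC-type zinc fingers.
Unc5c: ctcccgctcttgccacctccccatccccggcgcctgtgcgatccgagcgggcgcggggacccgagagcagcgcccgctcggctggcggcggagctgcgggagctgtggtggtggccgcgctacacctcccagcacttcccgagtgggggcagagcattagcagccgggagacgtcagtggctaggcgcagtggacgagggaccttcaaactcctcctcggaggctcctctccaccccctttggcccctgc
Unc5b: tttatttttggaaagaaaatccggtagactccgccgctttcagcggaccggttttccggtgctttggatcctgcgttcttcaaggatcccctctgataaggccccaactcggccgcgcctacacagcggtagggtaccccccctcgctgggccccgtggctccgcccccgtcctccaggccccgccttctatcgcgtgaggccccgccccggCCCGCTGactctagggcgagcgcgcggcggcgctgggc
Ntn3: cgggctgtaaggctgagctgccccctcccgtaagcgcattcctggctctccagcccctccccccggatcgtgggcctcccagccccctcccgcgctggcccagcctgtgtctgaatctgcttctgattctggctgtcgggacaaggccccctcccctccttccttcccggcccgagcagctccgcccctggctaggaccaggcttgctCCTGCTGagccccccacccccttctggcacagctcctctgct

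The *Unc5c* stretch held neither form, that of *Unc5b* held CCCGCTG beginning 38 bases before the start site, and that of *Ntn3* held CCTGCTG beginning 42 bases before it. The search took both strands, with CAGCAGG and CAGCGGG as the complements, and no run of letters can match both forms. CCTGCTG was found in 7 of 72 upstream stretches (56 of the guidance genes have one or more), or 9.72%, and in 8.44% of 32851 stretches of all genes. CCCGCTG was found in 10 of the 72, or 13.9%, against 4.44% of all. The median share of G and C was 64.4% in the guidance stretches and 52.4% in all. A match is a run of letters, and no binding was measured here. The putative ZIC2 sites that the paper lists in the *Nodal* enhancer HBE hold neither form. This search would have missed them, so a stretch without a match can still hold such a site.

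In the Slit and Robo system the higher values were those of 1 ligand and 1 receptor. *Slit3*, a secreted repellent that is also made outside the nervous system, was at 8.17, 8.21 and 8.20 in the mutant and 8.10, 7.92 and 7.78 in the wildtype pools. The mutant pools lay together above the wildtype pools, with a log2 difference of 0.26 (standard error 0.080, adjusted p = 0.65). A second *Slit3* probe above background gave −0.079, so that the probes of this gene differ in sign. *Robo1*, a receptor for Slit proteins, was at 10.76, 10.56 and 10.78 in the mutant and 10.60, 10.25 and 10.40 in the wildtype pools. Its groups overlapped by 1 pool each, and the difference of 0.29 (standard error 0.092, adjusted p = 0.68) was not seen in its second, dimmer probe (−0.0046).

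The other members of the system stayed close to 0. *Slit2*, which encodes a ligand of the same receptors, was at 8.93, 8.85 and 8.89 in mutant and 9.04, 8.95 and 8.71 in wildtype pools, a difference of −0.015, and its second probe gave 0.033. *Robo2*, the neighbour of *Robo1* on chromosome 16, was at −0.0050, with mutant pools at 7.51, 7.56 and 7.76 and wildtype pools at 7.59, 7.72 and 7.55, and its second probe gave 0.091. *Robo4*, a receptor of endothelial cells, was at −0.054, and *Slit1* had a mean above background only in wildtype, with a difference of −0.14. Over the 6 genes of the system the median was −0.010.

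None of the ephrin ligands had pools that were apart, and the 5 above background had positive differences, from 0.0091 to 0.17. *Efnb1*, an X-linked gene for a membrane-spanning ligand that sets boundaries between cell groups, was at 10.82, 10.97 and 10.79 in mutant and 10.69, 10.85 and 10.94 in wildtype pools. The groups overlapped fully, and the 95% interval of the difference ran from −0.14 to 0.20. *Efnb3* was at 0.018, *Efna1* at 0.0091 and *Efna5*, a lipid-anchored ligand of the EphA receptors, at 0.027. *Efna4* had the largest difference of the ligands, 0.17 (standard error 0.11). It read 9.56, 9.51 and 9.62 in the mutant and 9.59, 9.51 and 9.07 in the wildtype pools, so that only wildtype pool 3 stood apart. *Efna2*, *Efna3* and *Efnb2*, the last an arterial marker, were below background. *Efna1*, *Efna3* and *Efna4* follow each other on chromosome 3.

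Among the EphA receptors, which bind mainly ephrin-A ligands, *Epha1* was higher in the mutant. It read 9.48, 9.37 and 9.66 in *Zic2 iso/iso* and 9.25, 9.37 and 9.0002 in wildtype pools. The groups were apart by only 0.0023, and the log2 difference was 0.30 (standard error 0.099, adjusted p = 0.70). Each of its other 3 probes above background was also positive, at 0.28, 0.23 and 0.15. *Epha6* was at 7.60, 7.59 and 7.67 in the mutant and 7.59, 7.46 and 7.44 in the wildtype pools, close to the background level. Its groups were apart by 5.9e-04 only, with a difference of 0.12. *Epha2*, *Epha3*, *Epha4*, *Epha5* and *Epha7* had differences between −0.080 and 0.0060, and *Epha8* and *Epha10* were below background.

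Of the EphB receptors, *Ephb1* was lower in the mutant pools (9.75, 9.86 and 9.73) than in 2 of the 3 wildtype pools (10.13, 10.14 and 9.83). Mutant pool 2 overlapped with wildtype pool 3, and the log2 difference was −0.26 (standard error 0.086, adjusted p = 0.70). A second *Ephb1* probe at the background level gave 0.051. *Ephb4*, the receptor of veins, was at 11.46, 11.31 and 11.21 in the mutant and 11.43, 11.11 and 10.90 in the wildtype pools, with wide overlap and a difference of 0.18 (standard error 0.11). Its other probes gave 0.15 and −0.0070. *Ephb3* and *Ephb6*, the latter a receptor without kinase activity, were below background. The 14 genes of the Eph and ephrin system above background had a median of 0.014.

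**Figure D2:**
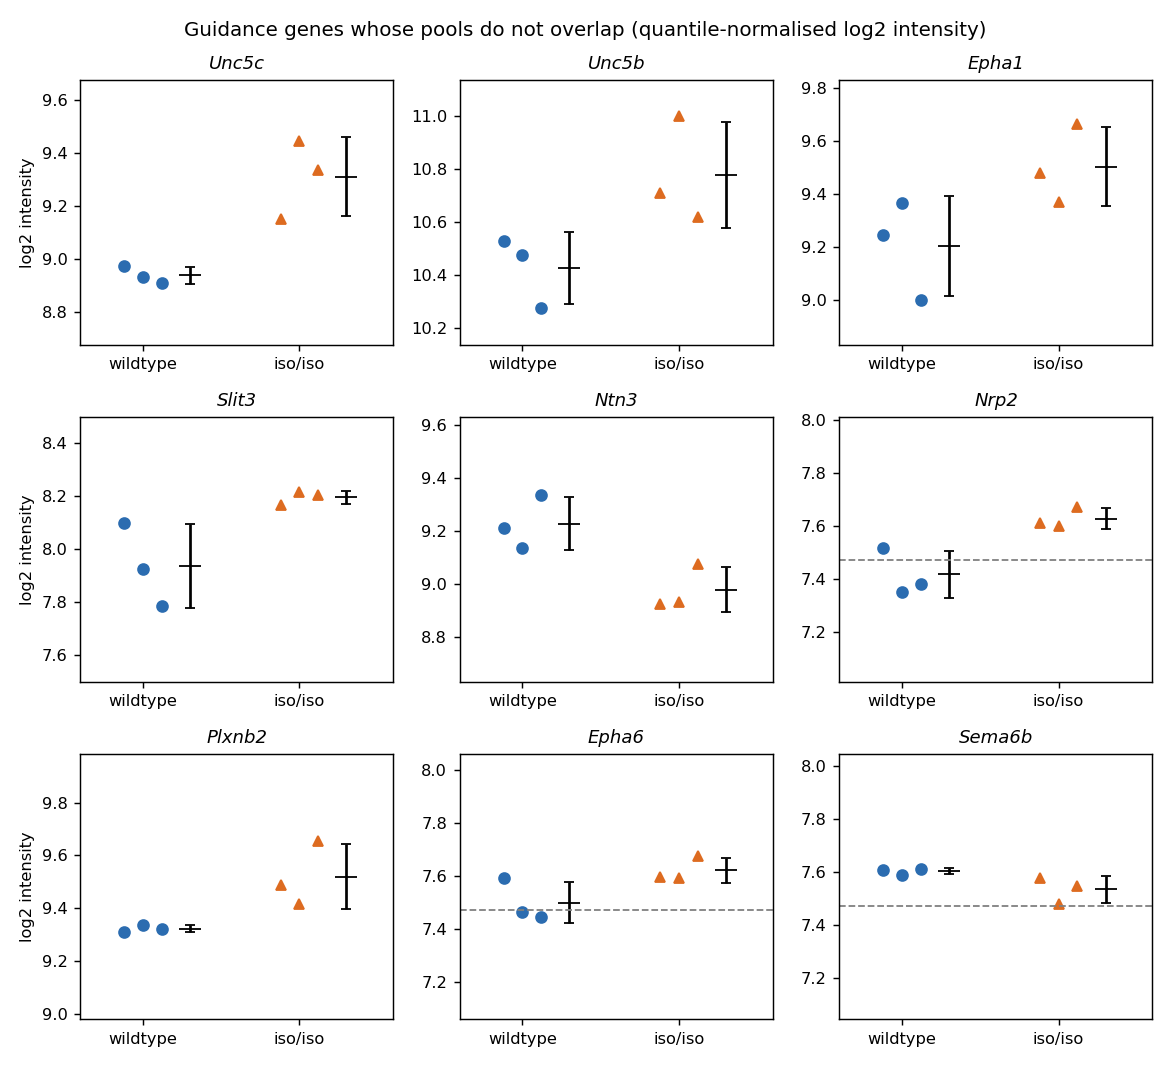
Quantile-normalised log2 intensity (vertical axis, each panel spanning 1 log2 unit) for the 9 guidance genes above background whose pools do not overlap, with 1 symbol a pool (blue circles, wildtype; orange triangles, Zic2 iso/iso). Horizontal bars are means with the SD of 3 pools, and a dashed line marks the 7.47 taken as background. The gap between genotypes is widest in Unc5c (0.18), and in Epha1 and Epha6 it is too small to see.

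The semaphorins varied in both directions. *Sema3f*, a secreted repellent that signals through neuropilin-2, was at 9.80, 10.15 and 9.80 in the mutant and 10.21, 10.11 and 10.17 in the wildtype pools. Mutant pools 1 and 3 were low and pool 2 was among the wildtype values, which gave a log2 difference of −0.25 (standard error 0.091, adjusted p = 0.74). Its second probe was at −0.16 without overlap. *Sema4a*, a membrane-bound semaphorin also known from immune cells, was at 8.72, 8.77 and 8.70 in the mutant and 8.76, 8.94 and 9.01 in the wildtype pools. Only wildtype pool 1 fell among the mutant values, and the difference was −0.17 (standard error 0.074).

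*Sema6a*, a membrane-spanning semaphorin that binds A-type plexins, was at 8.62, 8.14 and 8.44 in mutant and 8.19, 8.24 and 8.03 in wildtype pools. Mutant pool 2 lay among the wildtype values, and the difference was 0.25 (standard error 0.11, adjusted p = 0.80). *Sema5a*, which carries thrombospondin repeats, was at 7.78, 7.58 and 7.73 in mutant and 7.60, 7.57 and 7.47 in wildtype pools, a difference of 0.15, and its further probes gave 0.019 and −0.038. *Sema6b* was lower without overlap (7.58, 7.48 and 7.55 against 7.61, 7.59 and 7.61), although the difference was only −0.069 (standard error 0.063) and near the background level. *Sema7a*, which is held by a lipid anchor, was at 7.88, 7.78 and 7.72 in mutant and 7.89, 7.80 and 7.96 in wildtype pools, a difference of −0.092.

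Of the class 3 semaphorins, which are secreted, *Sema3a* was at −0.067 and *Sema3e*, the ligand of plexin-D1, at −0.086. The brightest probe of *Sema3b* was at 7.58, 7.76 and 7.83 in mutant and 7.77, 7.69 and 7.68 in wildtype pools, a difference of 0.0086. Its other probes above background gave 0.15, −0.14 and −0.11, all near that level, so that no direction can be given for the gene. *Sema4b*, *Sema4d*, *Sema4f*, *Sema4g* and *Sema6d* had differences between −0.051 and 0.14. *Sema3c*, *Sema3d*, *Sema3g*, *Sema4c* and *Sema6c* were below background, and *Sema3a* and *Sema3d* are neighbours on chromosome 5.

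**Figure D3:**
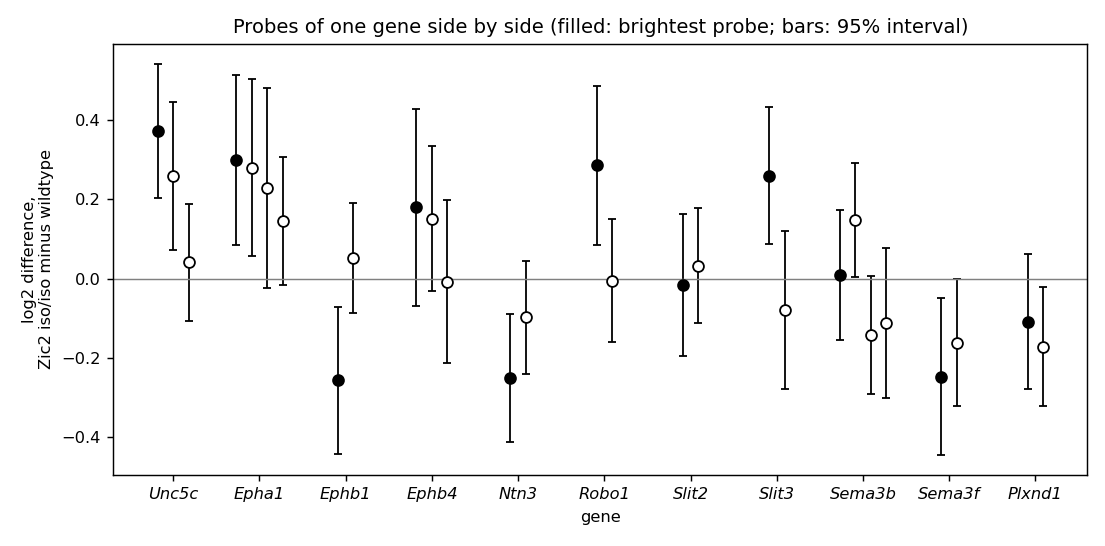
Log2 difference, Zic2 iso/iso minus wildtype (vertical axis), for each probe above background of 11 guidance genes with several such probes (horizontal axis). Filled points are the brightest probe of the gene, open points the others, and bars 95% intervals from limma with 3 pools per genotype. The probes of Epha1 are positive and those of Ntn3, Sema3f and Plxnd1 negative, while those of Ephb1, Ephb4, Robo1, Slit2, Slit3 and Sema3b lie on both sides of 0.

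The receptors of the semaphorins gave small differences. *Nrp2*, the neuropilin that binds Sema3f, was at 7.61, 7.60 and 7.67 in the mutant pools, and at 7.52, 7.35 and 7.38 in the wildtype pools, whose mean was below background. The groups did not overlap, and the difference was 0.21 (standard error 0.068, adjusted p = 0.68). *Nrp1*, the neuropilin that binds Sema3a and also VEGF, was at 0.055, with an interval of −0.10 to 0.21, and its other probes gave 0.20 and 0.19 with overlapping pools. *Plxnb2*, a widely used plexin that binds class 4 semaphorins and is needed for closure of the neural tube, was at 9.49, 9.42 and 9.66 in mutant and 9.31, 9.34 and 9.32 in wildtype pools. These did not overlap, and the difference was 0.20 (standard error 0.073, adjusted p = 0.74).

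*Plxnd1*, the plexin of endothelial cells, was at 9.10, 9.16 and 9.16 in mutant and 9.40, 9.24 and 9.10 in wildtype pools, with overlap through wildtype pool 3. Its difference was −0.11 (standard error 0.078), and its second probe was at −0.17 without overlap. *Plxna2*, a receptor that works with neuropilins, was at 10.48, 10.45 and 10.76 against 10.64, 10.62 and 10.43, a difference of −0.0011 with an interval of −0.20 to 0.20. *Plxnb1*, the receptor of Sema4d, was at −0.10. *Plxnc1*, a receptor of Sema7a, was at 7.53, 7.69 and 7.62 in mutant and 7.65, 7.78 and 7.62 in wildtype pools, a difference of −0.072. *Plxna1*, *Plxna3*, *Plxna4* and *Plxnb3* were below background. Over the 21 genes of this system above background the median was −0.050.

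Several differences depended on the choice of the brightest probe. With the mean of all probes of a gene, dim ones included, *Unc5c* was at 0.15, *Slit3* at 0.032, *Robo1* at 0.082, *Nrp2* at 0.041, *Ephb1* at −0.045, *Sema3f* at −0.13 and *Sema6a* at 0.093. *Epha1* and *Ntn3* moved less, to 0.24 and −0.17. The remaining 18 genes, below background in both genotypes, had differences between −0.15 and 0.11, and no change can be read for them. They include *Epha10* and *Unc5d*, whose mutant pools were above the wildtype pools by 0.019 and 0.014 at the nearest.

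**Figure D4:**
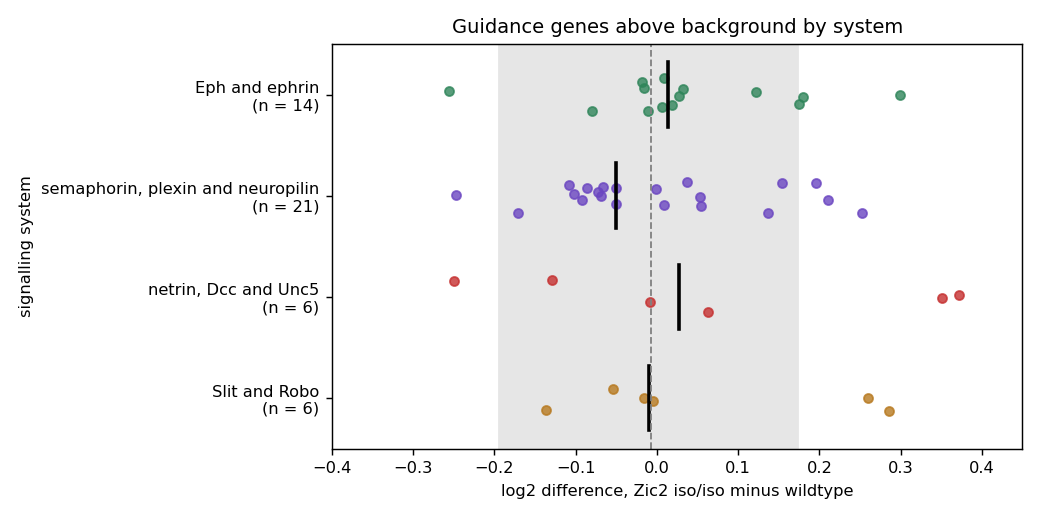
Log2 difference, Zic2 iso/iso minus wildtype (horizontal axis), of each guidance gene above background in the 4 systems (vertical axis). Vertical black bars are medians, the grey band is the central 90% of 10845 named genes above background (−0.19 to 0.17) and the dashed line their median. The medians lie between −0.050 and 0.027, and the widest spread is in the netrin system.

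The proteins that carry these signals inside the cell were also measured. Of 82 partner genes on a list from general knowledge, 75 had a probe and 61 were above background, and none passed an adjusted p of 0.05 in limma. Of the 61, 4 had an unadjusted p under 0.05, 3 were higher without overlap and 4 were lower, or 6.56%, 4.92% and 6.56% beside the 11.2%, 5.03% and 7.41% of all named genes. The median difference was 0.0099. *Pak3*, which encodes a kinase driven by Rac and Cdc42, had the largest difference. It read 8.05, 8.27 and 8.24 in mutant and 8.61, 8.42 and 8.51 in wildtype pools without overlap, at −0.33 (standard error 0.079, adjusted p = 0.41). The largest differences in the other groups were those of *Pick1* (−0.17), which binds the tails of Eph receptors and ephrin-B ligands, *Dpysl3* (0.13), a collapsin response mediator of semaphorin signals, *Dock1* (−0.21), a Rac activator downstream of Dcc, and *Ext1* (0.19), which builds the heparan sulfate that Slits bind.

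RNA came from whole embryos, so that fewer cells of a type and less RNA per cell cannot be told apart. Each of 11 marker lists had members above background. The lists cover tissues of the embryo and its membranes, and trophoblast with decidua as possible carry-over, where *Prl2c2* and *Prl8a2* were above background. Sums are over the normalised linear values of all listed genes with a probe. For 8 endothelial markers, relevant to *Unc5b*, *Nrp1*, *Plxnd1*, *Robo4* and *Ephb4*, 7 were above background (all but *Tie1*), none passed the test and the median difference was −0.090. Of the 7, 3 were positive, with *Flt1* at 0.28, and 4 were negative, with *Emcn* at −0.39. The summed linear level of the 8 was 3703 to 4102 in mutant and 3862 to 4120 in wildtype pools. For 6 neural crest markers (all but *Foxd3* above background) the sum was 3982 to 4189 in mutant and 4983 to 5470 in wildtype pools, and *Sox9* passed the test as lower (−0.69). In the same list *Snai2* was at 0.32, with mutant pools above wildtype pools, and *Tfap2a* at 0.016. Sums were also lower without overlap for forebrain (3265 to 3827 against 3986 to 4070), paraxial mesoderm (2859 to 3313 against 3356 to 4044), notochord and midline (1295 to 1378 against 1721 to 1898) and heart (3285 to 6899 against 6919 to 8473). The forebrain list held *Fezf1* at −0.98, but *Sox2* at 0.068 and *Otx2* at 0.055. The notochord list held *Shh* at −0.86 and *Chrd* at −0.52, but *Foxj1* at −0.017 and *Noto* at 0.0018. In the paraxial list *Tcf15* was at −0.52 and *Uncx* at 0.020. Bright probes weigh most in such a sum. The sums overlapped for midbrain and hindbrain (7013 to 9171 against 8602 to 9324), lateral plate mesoderm (2632 to 3124 against 2504 to 2650) and primitive blood (1206 to 9681 against 4263 to 6181). They also overlapped for yolk sac (22685 to 34598 against 20424 to 27982) and trophoblast with decidua (2598 to 3215 against 2734 to 3356). The markers called in these other lists were *Fezf1*, *En1*, *Shh* and *Chrd*, each lower in the mutant. Below background in both genotypes were *Sox1*, *Six3*, *Lhx2*, *Pax2*, *Mesp2*, *Pax3*, *Hand2*, *Gata1*, *Tpbpa* and *Cts7*. The part of these tissues in the differences of the guidance genes was not tested.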

How the data were processed

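RNA of 6 pools was hybridised to Illumina Mouse WG6 v2 arrays. The deposited values are linear probe intensities, with neither background subtraction nor normalisation between arrays (medians 154 to 187), and the variance stabilising step named by the authors' methods is not in them. Values were floored at 1, converted to log2 and quantile normalised. All 45281 probes were fitted with limma 3.58.1 (lmFit, eBayes) in R 4.3.3, without covariates, and adjusted by Benjamini-Hochberg at 0.05. Drawing used matplotlib 3.10.9 in Python 3.11.15. Gene names came from the platform annotation, in which 34885 probes carry 1 symbol, 18 several and 10378 none. The gene IDs of all 65 member genes had the same symbol in RefSeq. Sequences and gene order came from RefSeq tables (GRCm38.p6).

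The background level is the 95th percentile of 1608 probes for genes not expected in these embryos (beta-defensins, keratin-associated proteins, olfactory and vomeronasal receptors). Every member may be named. Values for each pool are given for genes past the threshold, the largest difference of each subfamily, genes whose pools do not overlap, and genes whose probes differ in sign. Of the partners, the largest difference of each part is named. The motifs, the stretches shown and the genes in the plot of probes were chosen after values were seen. The members and lists were chosen with earlier results of these data known.

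The steps were checked on simulated data, with planted log2 changes larger than any difference of a guidance gene. That check cannot show whether changes of the size seen here would be called. The labels name replicate pools but not their litters, so p-values refer to these pools. In limma the variance of each probe between pools is drawn towards a prior from all probes, which also enters standard errors and intervals. The number of arrays limits the precision. Alternatives were other normalisations, normexp (offset 50), an arsinh variance stabilising fit, filters, variance priors, array weights, the replicate block, probe means, other thresholds (0.01, 0.10) and percentiles (90, 99), and leaving out each pool. After seeing the data, the background filter on the mean of all pools and no filter were added.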

Additional observations from a re-analysis of the deposited data

How the results depend on the processing

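No guidance gene and no partner gene passed the test under any alternative run, and the lowest adjusted p of a named member was 0.098, for *Unc5c* without *Zic2 iso/iso* replicate 1. Of 25 named members, chosen by their values on these arrays, 19 kept their direction in each of 16 alternatives. Of 400 single values 27 turned in sign, all in 6 genes. The intensity trend, robust variance prior, replicate block and filter on probes above background leave each difference unchanged by design. Probe means do so for genes with 1 probe, such as *Unc5b*. No sign could turn there, and the other alternatives reuse the arrays, so a kept sign is no independent evidence. Without normalization between arrays *Plxna2*, *Robo2* and *Slit2* were at 0.082, 0.052 and 0.082, where the median of all probes was itself 0.052. With arrays centred on their medians these genes were at 0.033, 0.0037 and 0.033. *Robo2* was at 0.0059 with the arsinh transformation. With the mean of all probes of a gene, *Plxna2* was at 0.042, *Sema3b* at −0.025, *Sema5a* at −0.0052 and *Robo2* at 0.0041, while *Epha6* (0.013), *Ephb4* (0.11), *Efna4* (0.11), *Sema6b* (−0.11) and 7 genes given above, *Unc5c*, *Slit3*, *Robo1*, *Nrp2*, *Ephb1*, *Sema3f* and *Sema6a*, kept their sign but changed clearly in size. Leaving out 1 pool gave −0.035 to 0.089 for *Efnb1*, −0.10 to 0.056 for *Plxna2*, −0.045 to 0.079 for *Sema3b*, −0.081 to 0.045 for *Robo2* and −0.11 to 0.055 for *Slit2*.

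The median over the guidance genes was 0.082 without normalization between arrays and 0.033 with arrays centred on their medians. The count of genes whose pools do not overlap, 9 in the report, was 6 without normalization, with the arsinh transformation and with probe means. Without normalization 6 of 45 were higher and 0 lower (4.36% and 0.623% of all named genes). With the arsinh transformation 5 of 47 were higher and 1 lower (5.44% and 7.3%). With probe means 5 of 31 were higher and 1 lower (5.71% and 6.94%). The count was 15 of 72 (10 higher, 5 lower, where 5.55% and 6.83% of all named probes were) when each probe above background counted for itself. It was 12 to 16 when 1 pool was left out. Without mutant pool 1 it was 13 of 47 (9 higher, 4 lower, where 11.2% and 12.3% of all named genes were). Without mutant pool 2 it was 16 of 46 (10 and 6, 9.47% and 13.5%). Without mutant pool 3 it was 12 of 46 (7 and 5, 9.84% and 13.2%). Without wildtype pool 1 it was 16 of 47 (12 and 4, 11.2% and 15.2%). Without wildtype pool 2 it was 14 of 48 (7 and 7, 8.53% and 11.9%). Without wildtype pool 3 it was 16 of 46 (8 and 8, 9.26% and 11.8%). There 3 pools against 2 part more easily. The labels number the pools of each genotype 1 to 3, but same-numbered pools did not deviate together (r = −0.13, −0.020 and −0.12 across probes above background), so the numbers were not read as pairs. With the replicate block 0 guidance genes passed the test, and 17 probes in all where 20 did without it. The 2 filters added after seeing the data kept 44 and 65 genes, with 9 and 11 not overlapping. Of the 65, 9 were higher and 2 lower, where 890 and 1190 of all 19057 named genes were. For the filter that kept 44 the share over all named genes was not computed. The cause of these shifts was not tested. The number of arrays limits what can be seen, and for dim genes the unsubtracted background does.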
